A study of Mus musculus with 2 samples.

Results

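Splice junctions that span 100 kb or more were examined in polyadenylated RNA of adult mouse liver. A junction is an interval that reads skip when they are aligned to the genome, as they do across an intron. The long junctions were chosen by their length, at least 100000 bases, and by their reads, at least 1 in each of the 2 libraries of the junction file. The rule selected 4765 of 352887 junctions, and 144669 of all junctions had reads in both libraries. Of the 53401 junctions of this length with any read, the others were read in 1 library only. Since length and reads chose the members, both are given as descriptions, the comparison of the libraries included. The tissue was liver of C57BL/6J mice, a common inbred laboratory strain, aged 8 weeks, with littermates of both sexes (male and female) pooled. Both libraries are replicates of that 1 group, with no treatment labelled, made as stranded libraries of paired 76-nucleotide reads from poly-A RNA above 200 nucleotides in size, with ribosomal RNA depleted. The labels call them biological replicates 1 and 2. They share 1 donor identifier, so whether differences between them are technical or biological cannot be told apart here. The p-values ask only whether these 2 libraries differ by more than counting error, and they measure no spread between animals.

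Introns are removed from the primary transcript by the spliceosome, which joins a donor site at the 5′ end of the intron to an acceptor site at its 3′ end. Nearly all introns start with GT and end with AG. Most mouse introns are a few kilobases long, but genes of receptors, cell adhesion proteins and DNA-binding regulators often carry a very long intron near their start. RNA polymerase has to cross the whole intron before the acceptor exists, and such genes include several common fragile sites, regions that break when replication is disturbed. Liver also expresses families of near-identical genes that lie side by side, such as the cytochrome P450, serpin and murinoglobulin clusters. In these clusters the splice sites of neighbouring copies can lie as far apart as the ends of a long intron.

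The junction file, on the mm9 build, held 24692822 reads in library R1 and 25796894 in library R2. Which labelled replicate each of these names stands for is not known here. The gene tables summed to 60770411 estimated reads for replicate 1 and 61688916 for replicate 2, with the spike-in RNAs counted. All 6 hepatocyte markers were detected, with summed levels of 54572 and 56010 TPM, an abundance scaled by transcript length and library total. The 6 Kupffer cell markers summed to 206 and 338 TPM, the 5 sinusoidal endothelial markers to 76.9 and 102 TPM and the 5 stellate cell markers to 96.4 and 108 TPM. Of 4 bile duct markers 3 were detected, and the 4 had 0.370 to 16.2 TPM each. Of 5 neuronal markers 1 was detected, with sums of 1.37 and 2.52 TPM. In bulk tissue, fewer cells of a type and less RNA per cell cannot be told apart.

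Sequences of 2 kinds carry the results. The joins below are those of annotated long introns that lie within the coding sequence. Each gives 15 bases of the upstream exon in lower case and 15 bases of the downstream exon in capitals, 5′ to 3′, from the GENCODE M21 transcripts.
Msra: cgatccctgtaacagCCAAACACCATGTCA
Chn2: cctccgtgtcctctgATGCTGAGGAATACC
Macrod1: ccattgtcaacgctgCCAACAGCTCCCTGC
Igsf11: tcgtgtcgctgctcgGTGTCGCAACATCCC
Egfr: tggaggaaaagaaagTCTGCCAAGGCACAA
Immp2l: aattcttttggaccgGTTTCTCTGGGACTC

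The other kind joins an exon of a gene to an exon of its neighbour. The triples below show the donor gene's own join, the join between the genes, and the acceptor gene's own join, 30 bases on either side of the splice. They are shown because they let the copies be compared base by base. In the join between the genes capitals mark bases that differ from either of the own joins, and in an own join they mark bases that differ from the join between the genes.
Mug1 exon 1 to 2: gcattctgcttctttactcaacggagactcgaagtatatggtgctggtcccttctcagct
Mug1 to Mug2: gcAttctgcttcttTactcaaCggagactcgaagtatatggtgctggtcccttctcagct
Mug2 exon 1 to 2: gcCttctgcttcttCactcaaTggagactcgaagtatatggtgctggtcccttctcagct
Cyp2c40 exon 1 to 2: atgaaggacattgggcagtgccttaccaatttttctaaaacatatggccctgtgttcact
Cyp2c40 to Cyp2c67: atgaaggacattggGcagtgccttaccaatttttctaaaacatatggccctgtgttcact
Cyp2c67 exon 1 to 2: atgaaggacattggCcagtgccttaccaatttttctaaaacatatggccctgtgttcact
Selenbp2 exon 3 to 4: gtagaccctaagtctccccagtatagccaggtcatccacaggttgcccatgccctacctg
Selenbp2 to Selenbp1: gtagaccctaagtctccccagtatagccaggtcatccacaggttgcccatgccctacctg
Selenbp1 exon 3 to 4: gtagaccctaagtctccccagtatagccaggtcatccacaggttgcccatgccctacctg
Cyp2d26 exon 8 to 9: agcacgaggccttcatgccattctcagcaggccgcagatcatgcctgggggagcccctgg
Cyp2d26 to Cyp2d22: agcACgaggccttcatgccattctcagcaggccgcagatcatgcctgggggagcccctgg
Cyp2d22 exon 9 to 10: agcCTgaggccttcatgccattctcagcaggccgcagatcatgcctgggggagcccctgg
Cyp3a11 exon 7 to 8: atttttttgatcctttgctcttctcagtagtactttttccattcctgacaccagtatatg
Cyp3a11 to Cyp3a41a: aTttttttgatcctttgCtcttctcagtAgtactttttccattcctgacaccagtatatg
Cyp3a41a exon 7 to 8: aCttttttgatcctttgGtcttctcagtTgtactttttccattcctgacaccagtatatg

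Few long junctions were known introns. The file marks each junction with a flag A, and 98.7% of junctions of 20 kb or more with this flag at 1 had exactly the length of an annotated intron on their chromosome and strand, against 0.895% of those with the flag at 0. Flag A was 1 in 258 long junctions (5.41%) and in 80.2% of the shorter junctions read in both libraries. A second flag, C, was 1 in all 8527 introns checked that start with GT and end with AG and 0 in 41 others, so it is read here as a mark of GT-AG ends. By that flag 2748 long junctions (57.7%) had no GT-AG ends, against 6.44% of shorter ones. The share with flag A at 1 was 30.7% between 50 and 100 kb, 8.45% between 100 and 200 kb and 1.32% between 200 and 500 kb.

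**Figure D1:**
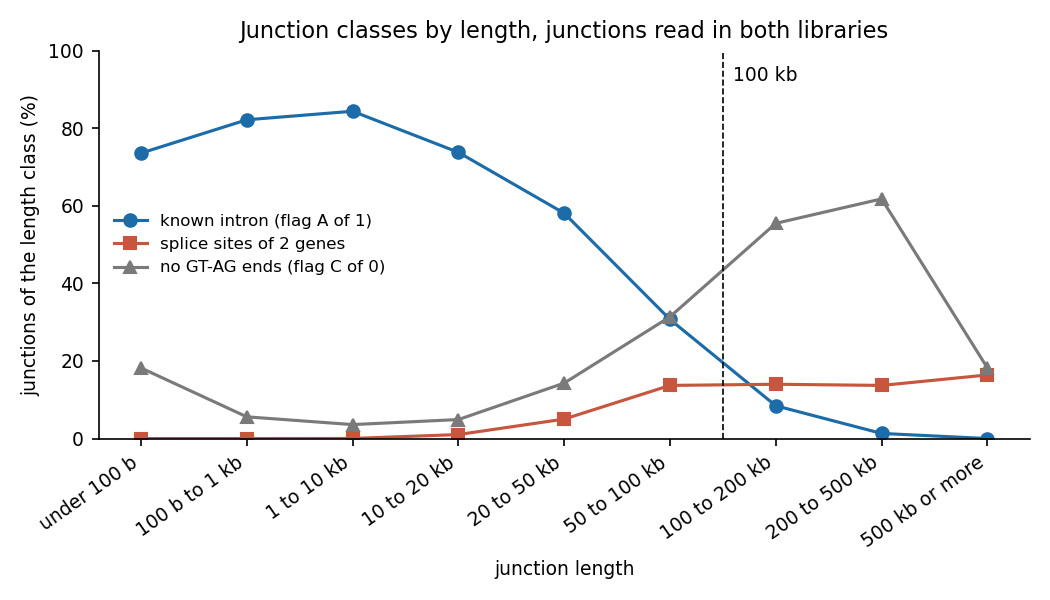
Share of junctions in each length class (percent, vertical axis) against junction length (horizontal axis), for junctions read in both libraries, with lines for known introns, splice sites of 2 genes and no GT-AG ends. The share of known introns falls from 84.4% at 1 to 10 kb to 1.32% at 200 to 500 kb.

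Junctions of several kinds lay on both sides of the length threshold. The shortest member had 100073 bases and 28 and 14 reads in R1 and R2, and joined splice sites of 2 genes. The next 4 members had between 100094 and 100130 bases, and 2 of these 5 shortest members were annotated introns. The longest junction below the threshold had 99951 bases with 1 and 5 reads and also joined 2 genes. The next 4 below it had between 99920 and 99937 bases and 3 to 70 reads.

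By their splice sites the long junctions fell into 5 classes. Annotated introns made up 272 of them (5.71%) and 5.50% of their 527217 reads, with a median of 19.0 reads per junction. Junctions between annotated splice sites of 2 genes numbered 663 (13.9%) but held 57.7% of the reads, with a median of 42.0. A further 32 joined a donor and an acceptor of 1 gene that no annotated transcript joins. In 719 junctions 1 end was a splice site of a gene placed on mm9, and in 3079 (64.6%) neither was. Only 12848 of 33369 genes could be placed, so the latter can include annotated sites of other genes, as at Mgmt. The last class held 22.2% of the reads at a median of 4.00 reads. Splice sites of 2 genes were joined in 0.531% of all shorter junctions. Between 50 and 100 kb the share was 13.7%, near that of the members, so it is not particular to them.

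The 272 annotated introns included 269 whose length fitted a single intron of a single gene, in 217 genes, of which 268 introns lay in protein-coding genes. In 252 of them other junctions of the gene lay at the annotated distance, which supports the match. Of the other 17, 14 had flag A at 1, and 3 rest on length alone. Those are 1 junction given to Gtdc1, with 2 and 4 reads, and both junctions given to Ccser1, which have an end at a splice site of Mug2. In 1 of the Ccser1 junctions, with 21 and 17 reads, the other end is a splice site of Gm10319, so its ends fit 2 genes. Ccser1 had 0 and 0.0200 TPM in replicates 1 and 2. Without these 3 matches 266 introns and 216 genes remain, an alternative chosen after seeing the data. The other 3 of the 272 are introns that 2 overlapping genes share. The most read was an intron of Ghr (growth hormone receptor, ENSMUSG00000055737.12), chr15:3408009-3532999 on the minus strand of mm9 and 124991 bases long. It had 2579 reads in R1 and 2270 in R2, and it lies before the start codon. The long intron of Msra (methionine sulfoxide reductase A, which repairs oxidised methionine) followed with 2396 and 2082 reads at chr14:64932593-65059546. Both were read somewhat more in R1.

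Chn2, a GTPase-activating protein for Rac, had 645 reads in R1 and 660 in R2 at chr6:53990150-54123457. Ugt1a9, a glucuronosyltransferase, had 681 and 530 at chr1:89968254-90111618. Macrod1, a hydrolase of ADP-ribose marks, had 526 and 436 reads in an intron that is the third of its gene. Igsf11, an adhesion molecule of the immunoglobulin superfamily, had 290 and 234. The 15 most read of the 269 introns carried 60.3% of their reads, whereas 36 introns had 5 reads or fewer.

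Receptors and signalling genes supplied 15 host genes of the 39 listed for this role, with 22 long introns and 6809 reads. Egfr, the epidermal growth factor receptor, had 211 and 285 reads across its first intron, chr11:16652574-16758898. Ptprj, a receptor tyrosine phosphatase, had 286 and 203 reads. Prlr, the prolactin receptor, had 219 and 107 reads, also before the start codon. Ptprk, another receptor phosphatase, had 88 and 159 reads. Egfr and Ptprk were thus read more in R2, and Ptprj and Prlr more in R1. Erbb4, a relative of Egfr, had 15 reads over 2 long introns at gene levels of 0.190 and 0.430 TPM.

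Adhesion and polarity genes supplied 10 of 27, with 15 introns and 784 reads. Cadm1, a cell adhesion molecule, had 150 and 114 reads across an intron of 257465 bases. Pard3, a scaffold of cell polarity, had 216 reads in 2 long introns. Magi1, a junctional scaffold, had 30 and 36 reads across an intron of 339689 bases.

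Common fragile site genes supplied 10 of the 17 found. They held 19 introns with 694 reads. Immp2l, a peptidase of the mitochondrial inner membrane, led with 180 and 169 reads across an intron of 251223 bases. Ptprg had 88 reads in 2, Wwox 37 in 2, Gphn 73 in 1, and Fhit, a dinucleoside hydrolase, 5 and 22 in 1. Naaladl2 had 16 reads in 3 long introns at low gene levels of 0.0700 and 0.150 TPM.

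DNA-binding regulators supplied 10 of 45, with 13 introns and 435 reads. Zbtb20, a zinc finger repressor of liver genes, had 170 reads in 3 long introns. The nuclear factor I genes Nfia and Nfib had 72 and 69 reads in 1 intron each, and Thrb, the thyroid hormone receptor beta, had 27. The long intron of Foxp1, a forkhead repressor, is also one of Gm20696 and is not in this count. It had 29 and 31 reads. Of 43 genes listed for liver metabolism and transport 4 were hosts, and Msra held most of their 4725 reads. Ext1, which builds heparan sulfate, had 121 reads, Fto, an RNA demethylase, 106, and Gmds, which makes GDP-fucose, 20. Only genes with an annotated intron of 100 kb or more could be hosts. That held for 7 of these 43 and for 25 of the 45 regulators. It held for 27 of the receptor and signalling genes, 23 of the adhesion and polarity genes and 16 of the fragile site genes.

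At the Ugt1a locus several first exons are spliced to 1 shared set of downstream exons. Junctions from the first exons of Ugt1a9, Ugt1a6b and Ugt1a10 ended at the same acceptor. They had 681 and 530, 133 and 66, and 23 and 12 reads in R1 and R2, so all were read more in R1. The 3 downstream introns of the locus, which every first exon uses, had 2590 to 4503 reads.

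The longest annotated intron read in both libraries was in Sgcd (delta-sarcoglycan), 350841 bases with 1 read in each. Next were Magi1, then Ank3 (ankyrin-G), 324148 bases with 4 and 1 reads, Smyd3, a lysine methyltransferase, 310880 bases with 14 and 42 reads, and Cmss1, 283122 bases with 20 in each. In all 28 annotated introns exceeded 200 kb. More than 1 long intron was matched in 38 genes, with Ccser1 counted. Among them Sugct and Cdh13 had 4 each.

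Many of these introns opened their transcript. Of the 269, 139 (51.7%) were the first intron of a transcript, against 50.6% of the 2178 annotated introns of 100 kb or more. Before the start codon lay 13.8%, against 18.6%. Of shorter matched introns of 20 to 100 kb, 49.9% were first introns.

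A long junction was, at the median over introns, read about as often as the other junctions of its gene, but the spread was wide. Over 251 long introns the ratio of its reads to the median of the other placed junctions had a median of 1.30, with quartiles of 0.673 and 2.54. The ratio was below 0.5 in 43, between 0.5 and 2 in 124 and above 2 in 84. For introns of 20 to 100 kb the median was 1.22. The long junctions had to be read in both libraries. When the same was asked of the other junctions, an alternative chosen after seeing the data, the median was 1.00. Of 224 long introns with at least 3 such other junctions, 24 (10.7%) were the most read junction of their gene and 34 (15.2%) the least read.

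Single genes departed far from that median. The Ghr junction had 4849 reads, while its 14 other junctions read in both libraries had 7 to 1796, with a median of 135. Its ratio to the median of all 15 placed junctions was 37.0, with a binomial 95% interval of 31.1 to 44.4. The interval covers counting error only, as if that median were a single count, and leaves out the spread among the junctions. Msra had 4478 reads against 720 to 2158 in 4 others, and Chn2 had 1305 against 40 to 402 in 11 others. In these 3 genes the long junction was the most read. In Lipc (hepatic lipase) the long first intron had 188 and 190 reads, while 8 other junctions had 215 to 4809. In Egfr 14 of 27 other junctions had fewer reads than the long one, in a range from 3 to 1524.

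**Figure D2:**
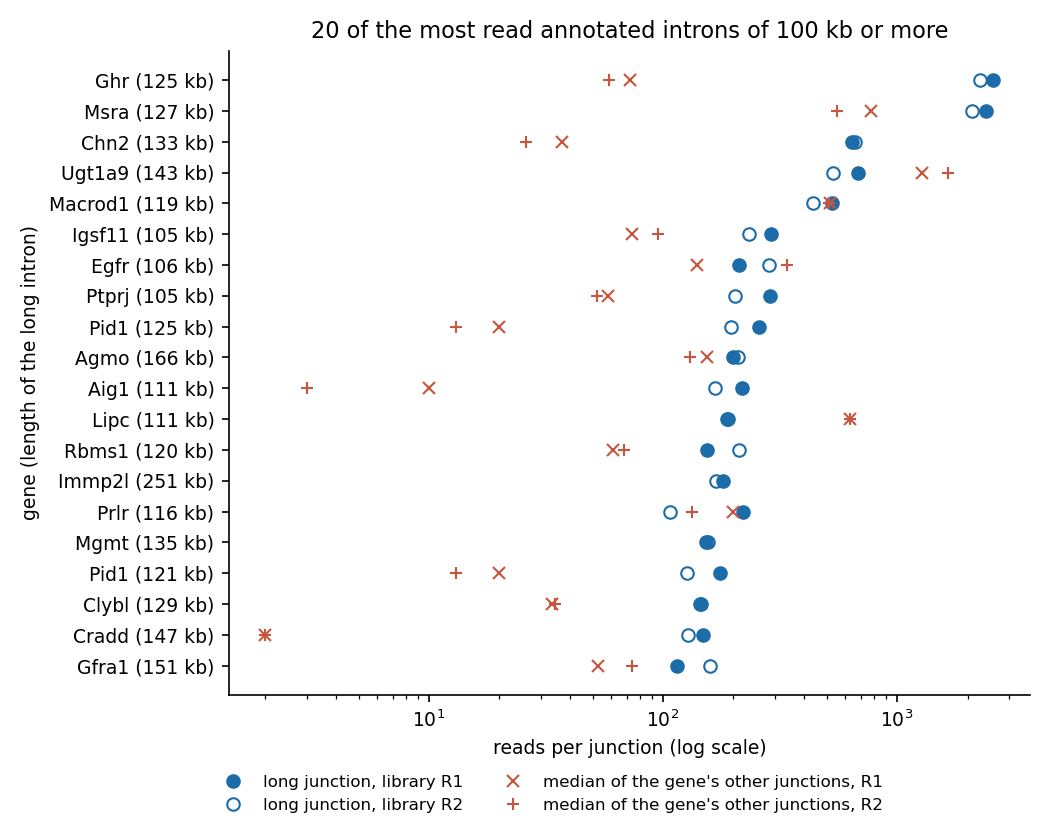
Reads per junction (log scale, horizontal axis) of 20 of the most read annotated introns of 100 kb or more, by gene and intron length (vertical axis), with circles for the long junction in R1 and R2 and crosses for the median of the gene's other junctions, where there are any. Circles of the libraries lie close together for most introns but apart for Prlr, with 219 reads in R1 and 107 in R2. For Ghr and Chn2 the circles lie far to the right of the crosses.

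Several long introns had more than 1 partner for a splice site. The Ghr acceptor was also joined to an annotated donor 124249 bases away, with 72 and 59 reads. It was joined to unannotated GT-AG donors 124054 and 124136 bases away, with 69 and 53 and with 34 and 21 reads. In Msra a junction of 155526 bases from the same donor skipped to a later annotated acceptor with 19 and 13 reads. Of the 272 annotated long introns 83 (30.5%) shared an end with another junction read in both libraries. Over all members it was 2713 (56.9%), and over the 2-gene junctions 663 of 663, which holds in part by construction because their sites are annotated ones.

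Host genes were chosen through junction reads, so their levels are a description. Of 217 host genes 171 (78.8%) reached 1 TPM in both replicates, against 24.7% of all 43346 genes listed. The median of the 171 was 5.67 TPM, against 10.4 TPM over all genes that reached 1 TPM in both. A mean of 100 TPM was reached by 8. Those were led by Adk (adenosine kinase) at 188 and 157 TPM in replicates 1 and 2, although its long intron had only 7 reads, and by Ugt1a9 at 217 and 122 TPM. Lipc had 141 and 154 TPM, Egfr 98.5 and 187, Ghr 119 and 122, Prlr 139 and 92.4, and Msra 113 and 103.

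The share of genes with a long intron read was higher in each class of higher gene level. An intron had to be read to count, and gene levels come from reads of the same series, so the rise is a description. Of genes with an annotated intron of 100 kb or more, 1 of 512 under 0.1 TPM had one that was read in both libraries. Here an intron counts for each gene that shares it, and the 3 matches by length alone do not count. The count was 38 of 208 (18.3%) from 0.1 to 1 TPM, 118 of 214 (55.1%) from 1 to 10 TPM and 63 of 94 (67.0%) at 10 TPM or more. Among the 31 genes of the last group with none, chosen after their values were seen, were Crp (C-reactive protein) at 266 and 240 TPM and Upp2 (uridine phosphorylase) at 107 and 86.9.

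**Figure D3:**
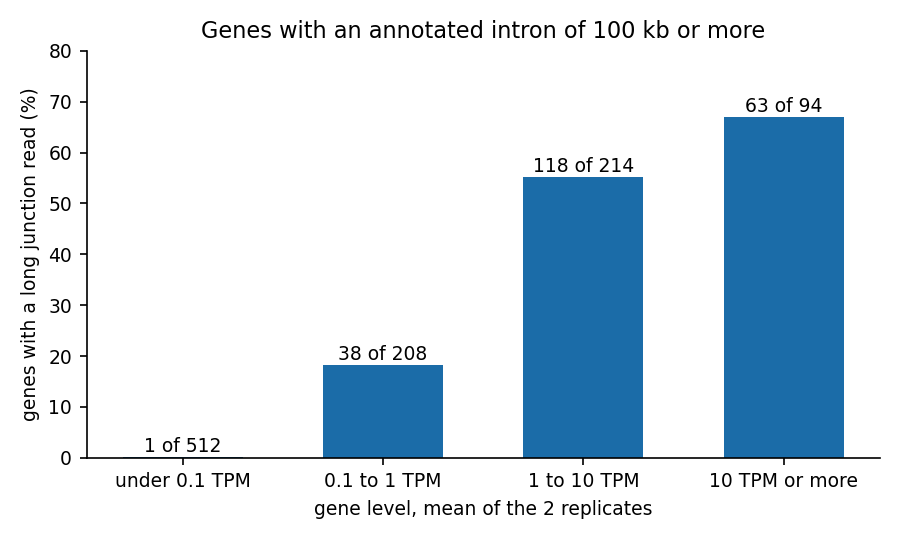
Share of genes with an annotated intron of 100 kb or more that had such an intron read in both libraries (percent, vertical axis), by mean gene level in TPM (horizontal axis), with counts above the bars. The share rises from 1 of 512 genes to 63 of 94.

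The deposited transcript shares show how much of each gene's abundance lay in transcripts that hold the long intron. It was 100% in both replicates for Msra, Macrod1, Lipc, Mgmt, Cyp7b1 and Ptprk. For Ghr it was 90.5% and 87.5%, for Chn2 82.3% and 79.3%, and for Egfr 39.2% and 52.2%. Rbms1 had 154 and 212 reads across its long intron, but the transcript that holds it had only 11.6% and 8.76%. For Babam2, a subunit of the BRCA1-A complex, the transcripts with the intron that the tables list were at 0% in both replicates, although the junction had 114 and 109 reads.

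Signal within the long introns was sparse and on the strand of the gene. Contigs, the stretches of continuous signal of the deposited file, covered a median of 5.61% of an annotated long intron on its own strand and 0.0349% on the opposite strand. For introns of 20 to 100 kb it was 7.41% on the own strand. Coverage was 52.3% in Ugt1a6b, 51.8% in Ghr, 50.6% in Ugt1a9 and 41.9% in Ptprj, and 4.25% in Cadm1. Both flanking bases of the junction lay in contigs for 98.5% of annotated long introns and for 97.2% of shorter junctions. It was 69.4% for 2-gene junctions and 45.6% where neither end was known.

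Most reads of the long junctions joined neighbouring members of liver gene families. The 663 junctions between 2 genes linked 204 genes in 209 pairs and held 304153 reads. This is a sum over rows, and whether rows count the same read was not tested. Murinoglobulins (Mug), plasma protease inhibitors of the alpha-macroglobulin family on chromosome 6, had 149 junctions with 51846 reads in R1 and 66821 in R2, or 39.0% of the class. The Cyp3a genes, cytochromes that oxidise steroids and drugs, had 69 junctions with 27505 and 11205 reads. Serpina1, the alpha-1-antitrypsin genes, had 22 with 17291 and 15010. Mug reads were thus higher in R2, and Cyp3a reads much higher in R1.

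Other P450 clusters followed. Cyp2c had 40 junctions with 14046 and 10344 reads, Cyp2d 34 with 10297 and 9329, and Cyp2a, Cyp2b and Cyp2f together 28 with 5107 and 6192. Selenbp, encoding selenium-binding proteins, had 11 junctions with 8506 and 12888 reads between 2 genes. Complement factor H and its relatives had 28 junctions with 5617 and 5633 reads, near equal in the libraries, and class I histocompatibility genes (H2) had 27 with 2973 and 4491. Sult genes, sulfotransferases, had 11 junctions with 431 and 71 reads. Major urinary protein genes (Mup) had 4 junctions of this class with 65 and 77 reads. The fixed list of clustered paralogs, most of which metabolise drugs or steroids, took part in 285 of the 663 junctions with 139767 reads. It supplied 4 host genes of annotated long introns, and 6 of its genes have an annotated intron of 100 kb or more.

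**Figure D4:**
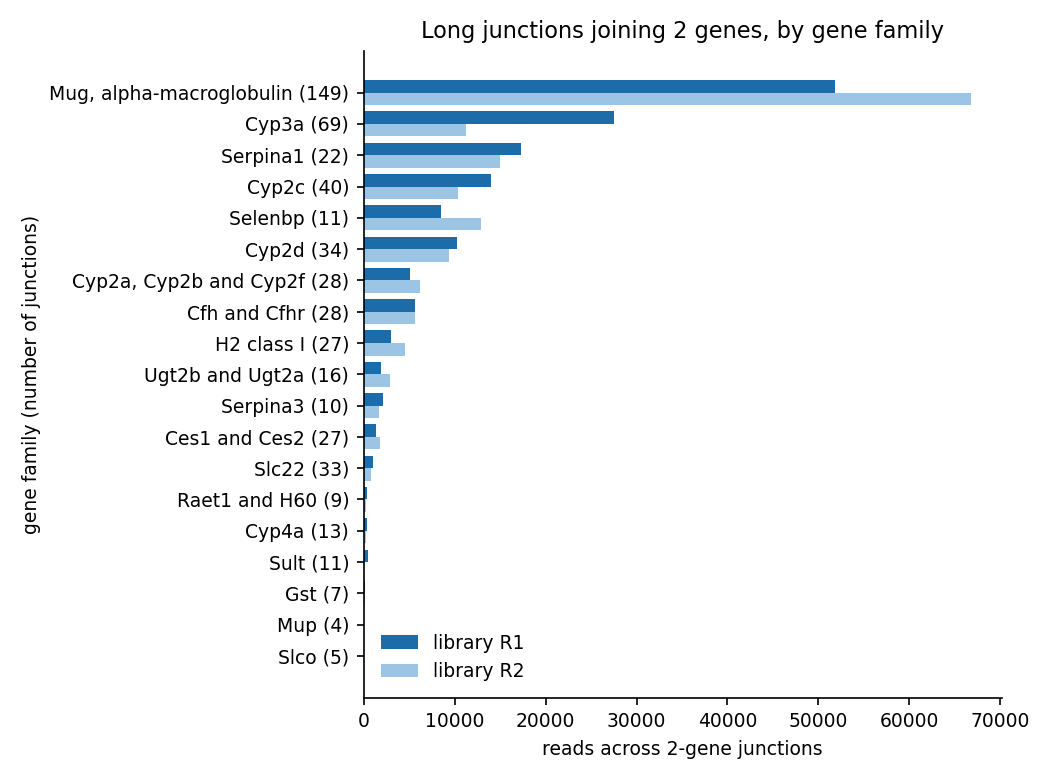
Reads across long junctions between 2 genes (horizontal axis), by gene family with the number of its junctions (vertical axis), with bars for libraries R1 and R2. Mug leads in both libraries, and Cyp3a and Sult show more reads in R1 than in R2.

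The leading junction ran from exon 1 of Mug1 to exon 2 of Mug2, chr6:121788743-121958323, with 9774 reads in R1 and 11841 in R2. Its join is among those printed. The same donor was joined to Mug-ps1 with 9742 and 11779 reads, and to the pseudogene Gm10319 with 6005 and 9878. The annotated junction of Mug1 itself from that donor had 22172 reads in all. Cyp2c40 to Cyp2c67 had 4778 and 2520 reads at chr19:39718245-39887044, and another junction of that pair had 2402 and 3467. Library R1 was higher in the former and R2 in the latter. A later junction from Mug1 to Mug2 had 2290 and 3183 reads.

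Serpina1a to Serpina1b had 3539 and 3062 reads at chr12:104966644-105092877, and another acceptor of Serpina1b was joined to Serpina1c with 2949 and 2560 and to Serpina1a with 2949 and 2559. Selenbp2 to Selenbp1 had 2847 and 3508 at chr3:94501027-94741129. Cyp2d26 to Cyp2d22 had 2870 and 2696 at chr15:82202156-82620885. Cyp3a41a to Cyp3a41b, with identical bases around the splice, had 3497 and 637 reads at chr5:146325433-146513703. The Cyp3a41a gene had 472 and 98.8 TPM in replicates 1 and 2, and Cyp3a41b 30.6 and 1.32 TPM, given beside these reads without matching the libraries.

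The genes joined are alike in sequence. Of the 209 pairs 207 (99.0%) shared at least one run of 20 identical bases in their transcripts, against 6.23% of 33213 pairs of genes on the same strand with starts 100 to 500 kb apart. The pairs that share none held 2 junctions and 35 reads. For 657 junctions the first 38 bases of the acceptor exon were compared with those of the exon that the donor gene itself joins, and the median was 37.0 identical bases. For the last 38 bases of the donor exon against the acceptor gene's own previous exon it was also 37.0. At least 35 bases were identical on at least 1 side of the splice in 565 junctions (86.0%) and on both sides in 384. All 38 were identical on at least 1 side in 324 (49.3%). In 388 (59.1%) the join kept consecutive exon numbers. Where several genes or transcripts fitted a splice site, the combination with the most identical bases was kept. The pairs, the identical bases and the exon numbers are thus those of the most alike combination.

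Relative to the donor's own annotated junction, a 2-gene junction had a median of 35.7% of its reads, and 122 of 663 had more. For the Mug1 to Mug2 join the 30 bases after the splice are those of Mug1 as well, and in this window the copies differ only at the 3 capitals before it. The 3 Selenbp sequences do not differ at all in the window shown. Whether such reads come from RNA that joins both genes was not tested.

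The genes of these pairs were also chosen through junction reads, so their levels are a description. Of 191 genes in these pairs that the gene tables list, 135 (70.7%) reached 1 TPM in both replicates and 52 (27.2%) reached a mean of 100 TPM, against 2.57% of all genes. Serpina1b had 7235 and 7375 TPM, Mug1 429 and 480, Cyp2d26 1643 and 1528, and H2-Q10 2576 and 2943 TPM. Their median was 13.8 TPM. Gm10319 had 25.3 and 42.3 TPM and Cyp2c67 34.7 and 37.8 TPM. Means under 1 TPM were found in 47, such as Cyp2d34 at 0.0300 and 0.0800 TPM. Estimated reads of such copies are shared among them by the quantification, so their single levels are uncertain.

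Of the 3798 members with at least 1 end at no splice site of a placed gene, the most read was a junction of chr4:121870932-122132563 on the minus strand with 25039 reads in R1 and 18205 in R2. It has no GT-AG ends and lies with neither end in a gene placed on mm9. It was followed by chr6:30479971-30688254 with 6535 and 4796 reads and chr7:130363558-130503843 with 3357 and 3371 reads, also without GT-AG ends. Within 50 bases of both ends of the leading junction lay 27 further junctions with 1327 reads. The Mup14 donor had 3306 and 2544 reads to a site of no placed gene 160960 bases away. The longest member of all, 1174378 bases, also started in the Mup cluster, at Mup17, with 22 and 12 reads. The next 4 had 925791 to 1127307 bases and 2 to 5 reads in all.

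Among those of the 3798 with GT-AG ends, 270 of 1051 had their ends inside 2 placed genes, and in 235 (87.0%) the genes shared a run of 20 bases. Among the 2747 without GT-AG ends it was 514, of which 205 (39.9%) shared one. Members without GT-AG ends had a median of 4.00 reads, and 43.4% had 3 reads or fewer, against 29.5% of shorter junctions without GT-AG ends.

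Some rows repeated each other. Among junctions with 20 reads or more, 277 of 1222 members (22.7%) shared an end and the exact reads of both libraries with another junction, against 0.705% of shorter junctions. None of 135 annotated introns did, and 114 of 427 2-gene junctions did (26.7%). For example, junctions of 279585 and 139832 bases on chromosome 14 that shared an end, named after their values were seen, each had 1189 and 719 reads. Rows that differ by even 1 read do not count as repeats of each other here. Serpina1c to Serpina1b with 2949 and 2560 reads and Serpina1a to Serpina1b with 2949 and 2559 are such rows. Whether a read was counted on more than 1 row was not tested. Sums and shares of reads over classes and families rest on it.

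The 2 libraries were compared junction by junction with an exact test of their reads, each arm being 1 library, scaled by the reads of junctions present in both. Of 83075 junctions with 20 reads or more 27.6% passed, at a Benjamini-Hochberg adjusted p of 0.05. The members were chosen by a read in each of these libraries, so their counts are a description from which nothing is read. Among members 441 of 1222 (36.1%) passed, 232 higher in R2 and 209 higher in R1. It was 33 of 135 (24.4%) for annotated introns. It was 209 of 427 (48.9%) for 2-gene junctions and 107 of 383 (27.9%) where neither end was known. The median absolute log2 ratio was 0.60 for members and 0.42 for shorter junctions.

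Single members are given by their log2 ratio of R2 to R1, with no p. Among the annotated introns it was -1.09 for Prlr, 0.79 for Ptprk, -0.25 for Ghr and 0.37 for Egfr. For Chn2 it was -0.03, for Lipc -0.05 and for Agmo 0.02. For Cyp3a41a to Cyp3a41b it was -2.52. A junction on chromosome 19 with 1 end in Cyp2c39, named after its values were seen, had 1181 reads in R1 and 1 in R2.

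**Figure D5:**
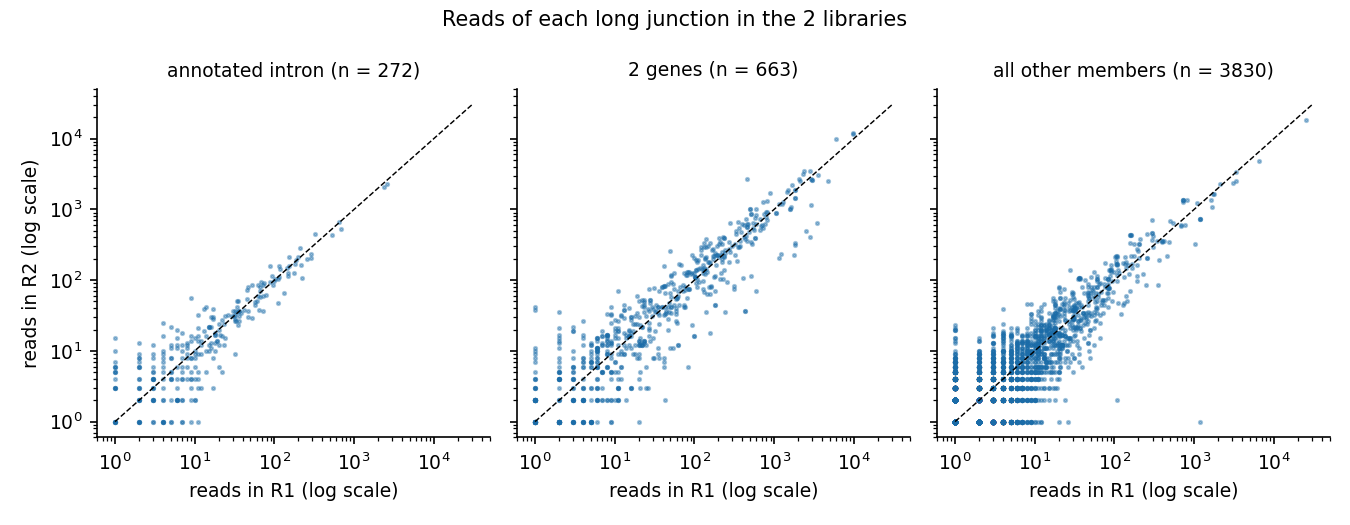
Reads of each long junction in R1 (horizontal axis) and R2 (vertical axis), both on log scales, in panels for annotated introns, junctions between 2 genes and all other members; the dashed line marks equal reads. Points of annotated introns lie near the line at high reads, and some 2-gene junctions lie well below it.

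Replicate 2 was compared with replicate 1 on the gene tables, which the rule did not use. Over all 14533 genes with 20 reads or more 57.0% passed the exact test, and 133 of 213 host genes did (62.4%), 49 higher in replicate 2 and 84 higher in replicate 1. Their median log2 ratio was -0.10, against -0.00413 over all genes. The split depends on the scaling: by total reads, which moves the median of all genes to 0.13, 81 of 128 called host genes were higher in replicate 2. The exact test called Egfr higher in replicate 2 with a log2 ratio of 1.23, and Prlr and Ugt1a9 higher in replicate 1 with ratios of -0.75 and -0.96. These 3 differences exceed the shift between scalings.

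By list, 6 of 13 tested fragile site genes passed as higher in replicate 2 and 3 as higher in replicate 1. It was 11 and 11 of 44 DNA-binding regulators, 10 and 7 of 35 receptor and signalling genes, and 7 and 4 of 18 adhesion genes. Liver metabolism and transport genes had 8 and 26 of 41, and clustered paralogs 59 and 71 of 150. The shares called lie on both sides of the 57.0% of all genes, and these directions also rest on the scaling.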

How the data were processed

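Poly-A RNA of 2 liver libraries was measured, in 1 group taken from the labels. The deposited junction file, on mm9, gives raw read counts per junction for libraries R1 and R2, and its flags and scores per junction, deposited by the authors, carry no explanation. No source used here names the aligner. The deposited contig signal was used only for the positions of contigs. Per the file headers and notes, the authors quantified genes on mm10 with GENCODE M4. The deposited estimated counts (expected counts) were rounded, and the deposited TPM and percent per transcript were used as given. Without molecular identifiers PCR copies cannot be told from molecules, so intervals cover counting error only.

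No coordinate was moved between builds. A junction was matched to an intron of GENCODE M21 (GRCm38) by chromosome, strand and exact length, and 12848 of 33369 genes were placed on mm9 by at least 2 junctions whose lengths and spacing repeat those of their introns. Of these, 99.5% shared their shift with a neighbour. Splice sites were assigned to genes through this placing. Library scaling for gene counts came from edgeR 4.0.16 under R 4.3.3 (TMM). Exact tests were two-sided conditional binomial tests (scipy 1.17.1) on features with 20 reads or more, adjusted over all of them, with a prior of 0.5 reads in log2 ratios. They compare 2 libraries, not conditions. The steps were tested on simulated data. There 2017 genes were placed, but only 1829 of them had been drawn, 1824 of those at the true shift. Some genes can thus be placed wrongly. The junction test recovered 13.5% of simulated 1.5-fold differences and 78.0% of 4-fold ones.

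Named were the 15 most read and 5 longest members, those next to the threshold, and genes of 6 fixed lists with the most read member of each. A few items covered by this choice are not reported here. Further genes are named for their class or for their values. The members and lists were chosen with earlier results of these data known. Alternatives were fixed with the tests, and those added later are named.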

Additional observations from a re-analysis of the deposited data

How the results depend on the processing

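Of 29 alternatives 22 left their value within 1.5 times. The number of long junctions moved with the rule. It was 7690 at 50 kb or more and 2021 at 200 kb or more, 2664 with at least 2 reads and 1466 with at least 5 reads in each library, and 28941 to 29225 when either library alone had to be read. Matched introns fell to 155 with at least 5 reads in each library. The 441 long junctions that passed the exact test became 459 at 10 reads and 442 under median-ratio scaling. Host genes called stayed between 127 and 133, but the share higher in replicate 2 went from 36.8% to 63.3% by total reads and 67.7% by spike-in reads. The ratio to other junctions ranged from 0.918 (mean of the others) to 1.30, with 1.22 and 1.25 in the single libraries. No paired analysis was possible because there is 1 group.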
